A study of Mus musculus with 14 samples.

Results

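The genes described here are nuclear-encoded subunits of mitochondrial respiratory chain complexes I to IV. They were given as a list of 45 symbols, under a rule that names no measured value. Spelled in capitals as in the count table, the 24 of complex I are NDUFA1, NDUFA2, NDUFA4, NDUFA5, NDUFA6, NDUFA7, NDUFA8, NDUFA9, NDUFA10, NDUFA13, NDUFB3, NDUFB5, NDUFB7, NDUFB8, NDUFB9, NDUFB10, NDUFC1, NDUFC2, NDUFS1, NDUFS3, NDUFS7, NDUFS8, NDUFV1 and NDUFV2. The 4 of complex II are SDHA, SDHB, SDHC and SDHD, the 7 of complex III are UQCRC1, UQCRC2, UQCRFS1, UQCRQ, UQCRB, UQCRH and CYC1, and the 10 of complex IV are COX4I1, COX5A, COX5B, COX6A1, COX6B1, COX6C, COX7A2, COX7B, COX7C and COX8A. All 45 were found among the 24982 genes of the count table, and all 45 were among the 13136 genes with enough reads to be tested. They were measured by RNAseq in mature colonic macrophages, each library coming from 1 mouse of 5 weeks. The cells were sorted from digests of colon and cecum lamina propria as live CD45+ CD64+ CD11b+ MHCII+ Ly6C- cells without Ly6G or CD103. All mice were C57BL/6 and carried *Cdcs1*, a locus that raises susceptibility to colitis. WT mice had no knockout named in their labels (4 libraries, plus mouse 11, which the authors left out of their own edgeR table). IL10RAKO mice were *Il10ra* -/- and so lacked a chain of the interleukin 10 receptor (4 libraries). DKO mice were *Il10ra* -/- and *Ccr2* -/- and so also lacked the chemokine receptor that brings monocytes out of bone marrow (4 libraries). A single CCR2KO library (*Ccr2* -/-, mouse 6) entered no test. The labels name no Cre or promoter for either knockout, so the loss was not limited to macrophages, and the controls described by the study were cohoused littermates.

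The respiratory chain sits in the inner mitochondrial membrane. Complex I takes electrons from NADH and complex II, which is also succinate dehydrogenase of the tricarboxylic acid cycle, takes them from succinate. Both pass them by way of ubiquinone to complex III, which hands them to cytochrome c, and complex IV passes them to oxygen. Complexes I, III and IV pump protons, and ATP synthase uses the resulting gradient. In macrophages, interleukin 10 is known for holding up oxidative metabolism, while strong inflammatory stimulation is known for moving the cells toward glycolysis and for succinate build-up at complex II. The mitochondrially encoded subunits of complexes I, III and IV were not analysed here.

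The 14 libraries held between 12153000 and 21216468 counted reads, and each of the 45 subunits had between 261 and 6961 reads in every 1 of the 12 libraries of the main comparison. *Il10ra* lay at 217 to 380 CPM (reads per library size, scaled by the trimmed mean of M values, TMM) in the 4 WT mice and at 3.41 to 11.2 CPM in the 8 mice labelled *Il10ra* -/-. *Ccr2* lay at 514 to 702 CPM in the WT mice and at 3.92 to 6.68 CPM in the DKO mice. WT mouse 11 had the fewest detected genes (11670, against 13485 or more in the other libraries) and 4220 CPM summed over 10 epithelial markers. It was kept out of the main comparison because the authors' table leaves it out. All 9 macrophage markers were detected in every library, and their summed level was 7676 to 10331 CPM in WT, 6470 to 10386 CPM for IL10RAKO and 5734 to 9994 CPM for DKO. Single markers went both ways, with 4 above and 5 under 0 in each knockout. In IL10RAKO 1 was called higher, and in DKO 1 higher and 2 lower. Mean *Adgre1* was 740, 500 and 358 CPM in WT, IL10RAKO and DKO, and mean *Cx3cr1* 389, 234 and 169. Mean *Csf1r* was 2451, 2847 and 3164 CPM, and mean *Mertk* 44.3, 66.1 and 87.1. All 6 fibroblast markers were lower in both knockouts, with a summed level of 294 to 577 CPM in WT, 14.99 to 53.7 CPM for IL10RAKO and 16.1 to 67.0 CPM for DKO. The part of any of these cells in the results was not tested. None of the 6 fibroblast markers was at 0 in any group. Neutrophil markers were higher in both knockouts for 3 of the 4 tested. Over 6 markers the sum was 75.2 to 122 CPM in WT, 137 to 303 for IL10RAKO and 155 to 261 for DKO. Most of it was *Csf3r*, at a mean of 87.3, 198 and 181 CPM in WT, IL10RAKO and DKO. Mean *S100a8* went from 0.183 CPM in WT to 12.4 and 15.1 CPM and mean *S100a9* from 0 to 11.3 and 12.1 CPM. Mean *Retnlg* was 3.82 CPM in WT and 5.18 and 5.13 CPM in the knockouts. *Ly6g* was at 0 in 3 WT and 2 IL10RAKO libraries, and *Mpo* in all 4 WT, all 4 IL10RAKO and 2 of 4 DKO libraries. The 3 mast cell markers summed to 10.6 to 32.7 CPM in WT and 70.3 to 120.1 CPM in the knockouts, nearly all of it *Kit*. The summed levels of epithelial, T and NK, B and plasma, dendritic and endothelial markers overlapped between the groups. Epithelial markers, however, summed to 1547 CPM in WT mouse 10, which is in the main comparison, beside 124 to 221 CPM in its other WT mice. B and plasma markers summed to 452 to 1677 CPM in WT, 338 to 944 CPM for IL10RAKO and 403 to 1676 CPM for DKO. In pooled cells, a change in which cells were sorted and a change in RNA per cell cannot be told apart.

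Levels of different subunits were compared as CPM per kilobase of the principal transcript, averaged over the 12 libraries. Complex IV subunits had the highest median, 168 CPM per kilobase, with a range of 46.0 for *Cox7b* to 327 for *Cox8a*. The 4 most abundant transcripts by this measure were *Cox8a*, *Cox4i1* (316), *Cox6a1* (312) and *Cox5a* (241), all of complex IV. The median was 105 in complex II, 72.1 in complex III and 64.1 in complex I, whose 24 subunits ran from 22.9 for *Ndufa5* to 114 for *Ndufb8*. The lowest level within complex II, 23.8 for *Sdhc*, lay under that of *Sdhb* (131), *Sdhd* (109) and *Sdha* (102), although the 4 proteins enter the complex together.

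In macrophages lacking IL10RA, most respiratory chain subunits were somewhat higher than in WT, and few of them passed the test 1 by 1. The fitted log2 fold change was above 0 for 44 of the 45 subunits, with *Ndufa4* the exception, while it was above 0 for 44.8% of all tested genes. The median log2 fold change was 0.35 over the subunits and -0.07 over all tested genes. Of the 45 subunits, 6 were called higher at an adjusted p under 0.05 (*Cox8a*, *Sdhb*, *Uqcrfs1*, *Cox5a*, *Cox5b* and *Ndufs3*) and 0 lower. Over all tested genes 8.70% were called higher and 7.10% lower, so 6 of 45, or 13.3%, was not far above the background. DESeq2 called 7 higher and 0 lower, where it called 2631 of all 13136 tested genes, 51.7% of them higher. Standard errors of the subunits' log2 fold changes lay between 0.14 and 0.28, and the 95% confidence interval held 0 for 28 of the 45. All libraries of IL10RAKO lay above all 4 WT libraries for 5 subunits (*Cox8a*, *Sdhb*, *Cox5a*, *Uqcrfs1* and *Ndufa9*), against 9.45% of all tested genes, and for 0 subunits they lay below all 4, against 8.78%.

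In DKO macrophages the picture against WT was alike in size, though the 2 comparisons share the WT libraries. The log2 fold change was above 0 for 38 of 45 subunits (45.4% of all tested genes), with a median of 0.28 against -0.06 over all tested genes. Called higher were 6 subunits (*Sdhb*, *Cox5a*, *Ndufs3*, *Cox8a*, *Ndufa9* and *Uqcrfs1*), or 13.3%, where the background was 9.23%. Called lower was 1 subunit, *Ndufa4*, or 2.22%, where the background was 9.22%. DESeq2 called 7 higher and 1 lower, where it called 3008 of all 13136 tested genes, 48.4% of them higher. All DKO libraries lay above all 4 WT libraries for 7 subunits (*Sdhb*, *Sdhc*, *Sdhd*, *Cyc1*, *Uqcrfs1*, *Cox8a* and *Ndufa9*), against 11.2% of all tested genes, and for 0 subunits they lay below all 4, against 11.0%.

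**Figure D1:**
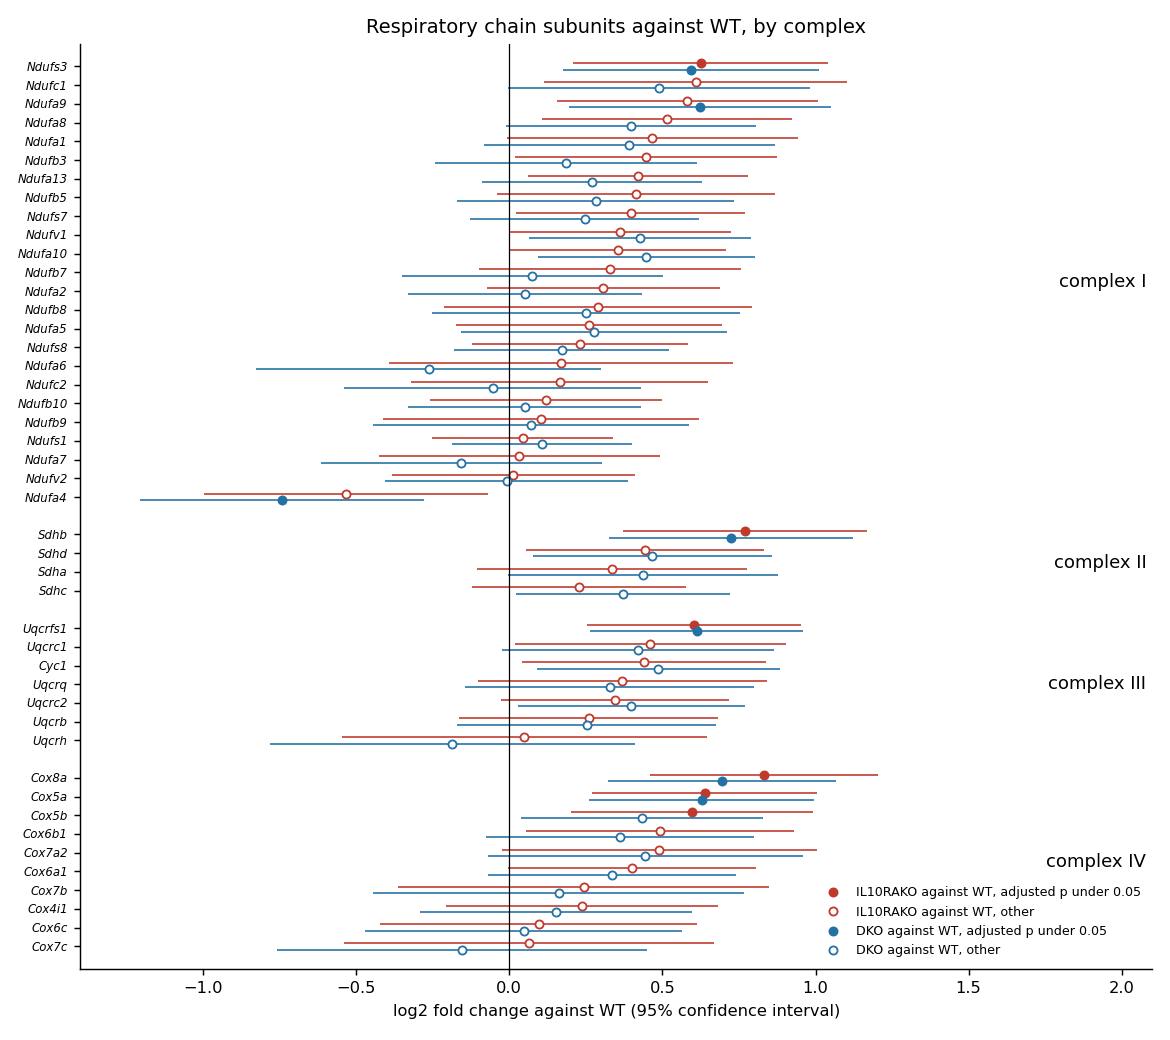
Log2 fold change against WT of each of the 45 subunits (horizontal axis, points, with 95% confidence intervals as lines), grouped by complex, for IL10RAKO in red and DKO in blue. Filled points have an adjusted p under 0.05 (6 in IL10RAKO and 7 in DKO), and *Ndufa4* is the only subunit left of 0 in IL10RAKO.

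Summed over a complex on the TMM scale, the subunits' levels in the knockouts overlapped those in the 4 WT mice for complexes I and IV. For complexes II and III they mostly exceeded them. The 4 complex II subunits summed to 520 ± 78.0 CPM in WT (SD, n = 4), 707 ± 134 in IL10RAKO and 735 ± 74.9 in DKO. The lowest knockout library, IL10RAKO mouse 2 at 595 CPM, was above the highest WT library, mouse 4 at 590. This gap holds on the TMM scale only. The TMM factors of these libraries were 0.913 and 1.09, so without TMM their order turns. The 7 complex III subunits summed to 612 ± 38.4 CPM in WT, 814 ± 146 for IL10RAKO and 804 ± 122 for DKO, where IL10RAKO mouse 7, at 623 CPM, was the only knockout library under the highest of these WT values, 646. WT mouse 11, outside this comparison, had 799.6 CPM for complex III, above IL10RAKO mice 2 and 7 and DKO mice 9 and 12, and 526 CPM for complex II, under all 8 knockout libraries. Complex I summed to 1173 ± 134 CPM in WT, 1429.8 ± 230.0 for IL10RAKO and 1350 ± 190.0 for DKO. Complex IV summed to 994 ± 199 CPM in WT, 1348 ± 251 for IL10RAKO and 1265 ± 157 for DKO. All 45 together made up 0.331% to 0.437% of the counted reads in WT, 0.324% to 0.433% for IL10RAKO and 0.347% to 0.456% for DKO, so as a share of the reads the groups overlapped fully.

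**Figure D2:**
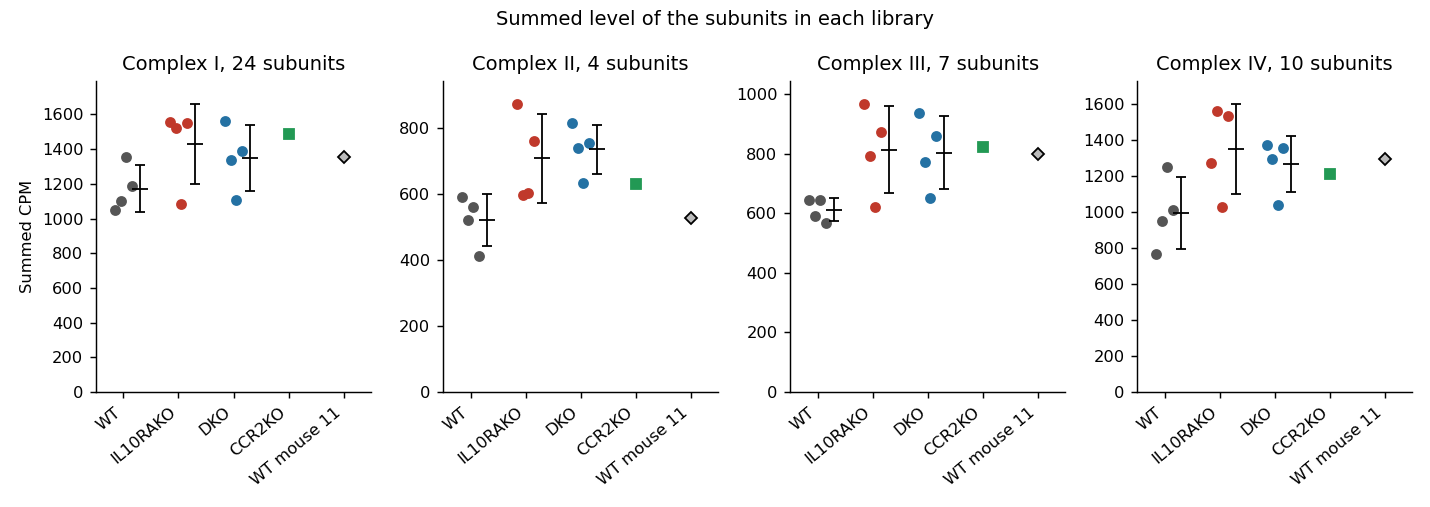
Summed CPM of the subunits of each complex (vertical axis, from 0) in each of the 14 libraries, by genotype. Points are libraries and the black marks are the mean ± SD of 4 mice. For complex II all 8 knockout libraries lie above the 4 WT libraries on this TMM scale, at the closest by 595 against 590 CPM. Within each knockout 1 library, IL10RAKO mouse 7 or DKO mouse 12, has the lowest sum for complexes I, III and IV.

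The summed CPM and the share of reads differ in their scaling. TMM factors were 1.09 to 1.18 in the WT libraries, 0.851 to 0.972 in IL10RAKO and 0.893 to 1.01 in DKO, so the choice between TMM and plain library totals moved all genes together. With library totals the median over all tested genes went to -0.38 for IL10RAKO and -0.32 for DKO, and that of the subunits to 0.03 and 0.02. The distance between the subunits' median and that of all genes stayed at 0.42 in IL10RAKO under both scalings, and was 0.35 with TMM and 0.34 with library totals in DKO. The subunits' median was thus above that of all genes under either scaling, and close to 0 as a share of the library. With library totals, 26 of 45 in IL10RAKO and 25 of 45 in DKO had a log2 fold change above 0, and the calls fell to *Cox8a* higher and *Ndufa4* lower in IL10RAKO and to *Ndufa4* lower in DKO. With library totals, 4.96% of all tested genes were called higher and 15.9% lower in IL10RAKO, and 5.69% and 16.3% in DKO. Of all genes called, 55.1% were higher in IL10RAKO with TMM and 23.8% with library totals, and in DKO 50.0% and 25.9%.

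*Sdhb* (chr4:140961203-140979193) encodes the iron-sulfur subunit of complex II, which carries electrons from succinate toward ubiquinone. It lay at 109, 98.8, 119 and 84.8 CPM in WT mice 4, 5, 10 and 13, at 214, 159, 128 and 202 CPM in IL10RAKO mice 1, 2, 7 and 8, and at 199.9, 172, 138 and 171 CPM in DKO mice 3, 9, 12 and 14. No knockout library overlapped the WT libraries. The log2 fold change was 0.77 ± 0.19 (SE, adjusted p = 0.0112) in IL10RAKO and 0.72 ± 0.19 (adjusted p = 0.0140) in DKO, and both calls held when any 1 of the 12 mice was left out, with an adjusted p of at most 0.0455. *Sdhd* (chr9:50596357-50603812), an anchor of the complex in the membrane, lay at 107, 94.9, 133 and 94.6 CPM in WT, 174, 140.3, 106 and 164 with IL10RAKO and 178, 135, 136 and 144 with DKO. The DKO libraries did not overlap WT, but neither comparison passed the test (log2 fold change 0.44 ± 0.18, adjusted p = 0.119, and 0.47 ± 0.18, adjusted p = 0.0909). The flavoprotein subunit *Sdha* had log2 fold changes of 0.34 and 0.44, and the other anchor, *Sdhc*, of 0.23 and 0.37, none of them called.

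In complex IV, 3 of 10 subunits were called higher in IL10RAKO and 2 of 10 in DKO. *Cox8a* (chr19:7215153-7217616), one of the smallest subunits, lay at 116, 133, 136 and 106 CPM in the 4 WT mice, 201, 243, 168 and 261 CPM in IL10RAKO and 221, 215, 152 and 205 CPM in DKO, again without overlap. It had the smallest adjusted p of all subunits in both comparisons: 0.00464 in IL10RAKO (log2 fold change 0.83 ± 0.17) and 0.0122 in DKO (0.70 ± 0.17), and kept its calls without any 1 mouse. *Cox5a* (chr9:57521274-57532426), a subunit on the matrix side, lay at 106, 108, 138 and 102 CPM in WT, 172, 185, 139 and 210.2 CPM with IL10RAKO and 197, 184, 136 and 184 CPM with DKO. WT mouse 10 lay just under the lowest IL10RAKO library and above the lowest DKO library, mouse 12. Its log2 fold change was 0.64 ± 0.17 (adjusted p = 0.0207) in IL10RAKO and 0.63 ± 0.17 (adjusted p = 0.0195) in DKO. The call was lost without WT mouse 13 in either comparison, without WT mouse 5 or IL10RAKO mouse 8 in the first and without DKO mouse 3 or 9 in the second, with an adjusted p of at most 0.0699.

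The zinc-binding subunit *Cox5b* (chr1:36691449-36693681) was called higher in IL10RAKO (log2 fold change 0.60 ± 0.18, adjusted p = 0.0410). It lay at 44.3, 47.7, 70.0 and 59.1 CPM in WT, 81.0, 94.9, 63.4 and 95.1 CPM with IL10RAKO and 80.9, 76.6, 63.3 and 78.0 CPM with DKO, where the log2 fold change was 0.43 ± 0.18 (adjusted p = 0.121). Its call was lost without any of 8 mice, with an adjusted p of up to 0.111, and a copy in the annotation shares 45.1% of its transcript at 95% identity or more. The other 7 complex IV subunits had log2 fold changes above 0 in IL10RAKO, the lowest being *Cox7c* (0.06), *Cox6c* (0.10) and *Cox4i1* (0.24), and *Cox7c* alone was under 0 in DKO (-0.15). *Cox6b1* and *Cox7a2*, at 0.49 each in IL10RAKO, did not pass either.

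In complex III the call fell on *Uqcrfs1* (chr13:30540308-30545362), the Rieske iron-sulfur protein that passes electrons toward cytochrome c1. It lay at 85.5, 69.0, 66.1 and 64.9 CPM in WT, 124, 111, 85.8 and 114 CPM with IL10RAKO and 123, 113, 87.9 and 112 CPM with DKO. The groups did not overlap, although IL10RAKO mouse 7 exceeded WT mouse 4 by less than 1 CPM. The log2 fold change was 0.60 ± 0.16 (adjusted p = 0.0215) in IL10RAKO and 0.61 ± 0.16 (adjusted p = 0.0175) in DKO. The first call was lost without WT mouse 5, 10 or 13 or IL10RAKO mouse 1 or 8 (adjusted p up to 0.0681) and the second without WT mouse 13 (0.0507). *Cyc1* (chr15:76343523-76346260), cytochrome c1 itself, lay at 83.3, 89.2, 95.5 and 81.8 CPM in WT, 147, 112, 82.1 and 134 CPM with IL10RAKO and 149.7, 125, 98.7 and 117 CPM with DKO. Here the DKO libraries did not overlap WT, but the log2 fold changes of 0.44 ± 0.19 (adjusted p = 0.130) and 0.49 ± 0.19 (adjusted p = 0.0846) did not pass. Of the remaining 5, the core protein *Uqcrc1* had 0.46 and 0.42 and the hinge protein *Uqcrh* 0.05 and -0.19.

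In complex I, 1 of 24 subunits was called in IL10RAKO and 3 of 24 in DKO, where 1 of the 3 was *Ndufa4*, the one called lower. *Ndufs3* (chr2:90894634-90904827), a core subunit of the arm that reaches into the matrix, lay at 28.7, 38.6, 37.3 and 31.6 CPM in WT, 59.9, 54.4, 37.0 and 59.0 CPM with IL10RAKO and 60.5, 53.9, 38.5 and 52.7 CPM with DKO. In each knockout 1 library, IL10RAKO mouse 7 or DKO mouse 12, fell within the WT range. The log2 fold change was 0.63 ± 0.19 (adjusted p = 0.0423) and 0.59 ± 0.19 (adjusted p = 0.0474), and the calls were lost without any of 9 mice in the first comparison and of 10 in the second (adjusted p up to 0.118). A pseudogene shares 75.7% of its transcript, so reads may have been lost to it or shared with it. *Ndufa9* (chr6:126821721-126849136), an accessory subunit near the quinone site, lay at 77.3, 66.7, 78.4 and 62.3 CPM in WT, 143, 90.6, 79.7 and 113 CPM with IL10RAKO and 142, 97.8, 89.9 and 109 CPM with DKO, without overlap. It was called in DKO (0.62 ± 0.20, adjusted p = 0.0425) and not in IL10RAKO (0.58 ± 0.20, adjusted p = 0.0633), and the DKO call was lost without any of 7 mice. The difference between the knockouts was 0.04 ± 0.20.

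The other core subunits of complex I were not called. In IL10RAKO and DKO, log2 fold changes were 0.36 and 0.43 for *Ndufv1*, the NADH-binding flavoprotein, 0.01 and -0.01 for *Ndufv2*, 0.04 and 0.11 for *Ndufs1*, 0.40 and 0.25 for *Ndufs7*, and 0.23 and 0.17 for *Ndufs8*. Among the accessory subunits of the group, the highest value in IL10RAKO was that of *Ndufc1* (0.61, adjusted p = 0.0926), and *Ndufa4*, *Ndufa6*, *Ndufa7*, *Ndufc2* and *Ndufv2* were the complex I subunits under 0 in DKO. The subunits listed under complex I thus spread from -0.53 to 0.63 in IL10RAKO and from -0.74 to 0.62 in DKO. Both lower ends are *Ndufa4*, whose place in complex I is taken up below. The next lowest values were 0.01 for *Ndufv2* in IL10RAKO and -0.26 for *Ndufa6* in DKO.

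*Ndufa4* (chr6:11900292-11907497) was the one subunit called lower. It carries a complex I name but is now known as a subunit of complex IV. It lay at 30.0, 52.7, 55.7 and 59.9 CPM in WT, 37.7, 39.9, 25.8 and 33.6 CPM with IL10RAKO and 32.5, 27.1, 25.8 and 33.1 CPM with DKO, with WT mouse 4 inside the knockout range and the other WT mice above it. Its log2 fold change was -0.74 ± 0.22 (adjusted p = 0.0284) in DKO and -0.53 ± 0.22 (adjusted p = 0.116) in IL10RAKO, and the difference between the knockouts was -0.21 ± 0.22. The DKO call was lost without WT mouse 5, 10 or 13 or DKO mouse 9 or 12 (adjusted p up to 0.0889), and the IL10RAKO value passed without WT mouse 4. With offsets for transcript length, it was called lower in both (-0.54, adjusted p = 0.0342, and -0.61, adjusted p = 0.0167). The CCR2KO library had 71.3 CPM, above every WT library.

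The paralogue of *Ndufa4* moved the other way and by far more. *AA467197* encodes NMES1, a small protein that is known from inflamed tissue and activated macrophages to take the place of NDUFA4 in complex IV. It was at 1.96, 3.11, 6.09 and 2.00 CPM in WT, with 30 to 147 reads a library. In IL10RAKO it was at 28.7, 85.6, 21.3 and 88.9 CPM and in DKO at 58.6, 55.4, 67.3 and 50.2 CPM, so every knockout library was above every WT library. The log2 fold change was 4.07 ± 0.50 (adjusted p = 7.64e-05) in IL10RAKO and 4.12 ± 0.50 (adjusted p = 5.68e-05) in DKO, and it was 0.04 ± 0.43 between the knockouts. CCR2KO, at 4.94 CPM, lay inside the WT range, and WT mouse 11 at 10.7 CPM. Per kilobase of transcript, the mean level of *AA467197* was 4.15 in WT, 70.9 for IL10RAKO and 73.1 CPM per kilobase for DKO. That of *Ndufa4* was 81.3, 56.1 and 48.5, so the order of the mean levels was turned in both knockouts. In single mice it was turned in all 4 DKO libraries, but in IL10RAKO only in mice 2 and 8, where *AA467197* was at 108 and 112 CPM per kilobase and *Ndufa4* at 65.3 and 55.0. In IL10RAKO mice 1 and 7 *AA467197*, at 36.2 and 26.9 CPM per kilobase, stayed under *Ndufa4*, at 61.8 and 42.3, as in WT.

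**Figure D3:**
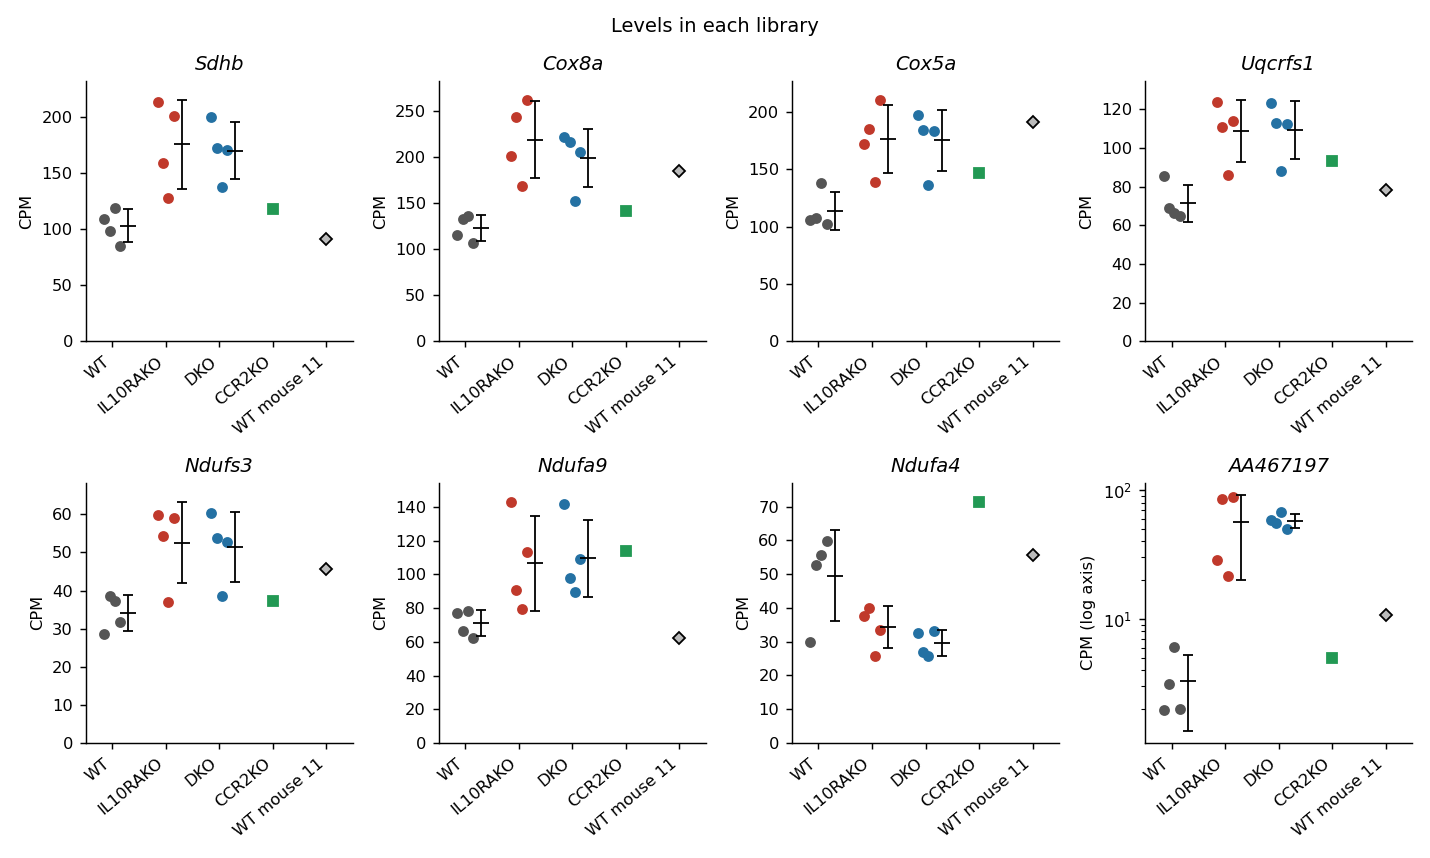
CPM in each library (vertical axis, from 0 except for *AA467197*, which has a log axis) of 7 subunits and of *AA467197*, by genotype, with the mean ± SD of 4 mice in black. *Sdhb*, *Cox8a* and *Uqcrfs1* lie above WT in all 8 knockout libraries, while *Ndufa4* lies lower in DKO than in 3 of the 4 WT mice and *AA467197* is at 21.3 CPM or more in the knockouts and 6.09 CPM or less in WT.

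Promoters of the subunits were searched because most of the genes lay on the same side of 0 and because 2 families of factors, NRF1 and the ETS factors that include GABP, are known for acting on respiratory chain genes. RefSeq promoter windows (250 bases before to 50 after the start, GRCm38.p6) were on hand for 35 of the 45. The NRF1 letters GCGCATGC, on either strand, were in the windows of 5 of these 35 genes (14.3%), against 3.05% of all 27025 genes with a window. The ETS letters CCGGAAGT, on either strand, were in 3 of 35 (8.57%), against 4.31%. Both backgrounds include genes that were not among the 13136 tested here, so they are not a background of expressed genes. The NRF1 holders were *Ndufa6*, *Ndufa8*, *Sdhb*, *Uqcrc1* and *Cox6a1*, of which only *Sdhb* was called, and the ETS holders were *Ndufs3*, *Uqcrh* and *Cox8a*, of which *Ndufs3* and *Cox8a* were called. Of all 35 subunits with a window, 8 were called against WT in either knockout. Whether called subunits hold the letters more often than the others was not tested. The 2 motifs do not overlap each other, and a match is a description of letters, not of binding. The stretches of the 3 called holders are shown from 100 bases before to 20 after the RefSeq start, 5′ to 3′ on the gene's strand, with the matched letters in capitals.
Sdhb, chr4:140961171-140961290, plus strand, NRF1 letters: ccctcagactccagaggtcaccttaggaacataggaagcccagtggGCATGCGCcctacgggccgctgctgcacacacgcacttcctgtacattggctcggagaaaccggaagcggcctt
Cox8a, chr19:7217597-7217716, minus strand, ETS letters: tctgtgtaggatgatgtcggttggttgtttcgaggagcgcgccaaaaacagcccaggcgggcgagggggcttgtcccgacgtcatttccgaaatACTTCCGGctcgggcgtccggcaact
Ndufs3, chr2:90904702-90904821, minus strand, ETS letters: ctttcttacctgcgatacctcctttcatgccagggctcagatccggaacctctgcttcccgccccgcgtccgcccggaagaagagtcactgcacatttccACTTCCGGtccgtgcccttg
In all 3 the letters are read on the strand opposite to the gene. They begin 54 bases before the RefSeq start in *Sdhb*, 6 bases before it in *Cox8a* and at the RefSeq start itself in *Ndufs3*. The gene coordinates given above come from another annotation, GENCODE. There *Sdhb* begins at 140961203 and *Ndufs3* at 90904827, upstream of their RefSeq starts, so in these genes the letters lie inside the GENCODE span.

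Between the knockouts, which differ in the loss of CCR2, no subunit passed the test. Comparing DKO with IL10RAKO directly, edgeR called 0 of the 45 subunits, where 0.0457% of all tested genes were called. DESeq2 also called 0 subunits, where it called 24 of all 13136 tested genes. At an unadjusted p under 0.05 there were 0 subunits, against 2.95% of all tested genes. Log2 differences ran from -0.43 (*Ndufa6*) to 0.14 (*Sdhc*), with standard errors of 0.14 to 0.28. The 95% intervals reached 0.29 to 0.61 to either side of each value, with a median of 0.42, so the intervals hold differences of that size in single subunits, and the lack of calls does not show that the knockouts were alike. The median difference was -0.06 over the subunits, beside -0.01 over all tested genes, and 34 of 45 were under 0. With library totals the subunits' median was 0.01, but that of all tested genes moved to 0.05. The distance between the 2 medians was -0.048 with TMM and -0.046 with library totals. With offsets for transcript length the subunits' median was 0.04, beside -0.02 over all tested genes. Without DKO mouse 12 it was 0.002, beside -0.009.

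The transcripts of the subunits are short, and their lengths were set against the fold changes. The principal transcripts of the 45 ran from 419 bases (*Ndufa1*) to 3171 (*Sdhc*) with a median of 865, while the median of the tested genes was 2882, and 43 of the 45 were shorter than that. Complex IV transcripts were the shortest, with a median of 652 bases, and complex II the longest, with 2066. Genes were put into 8 bins by length, of which 7 held members. In IL10RAKO against WT, the median log2 fold change of all genes went from -0.19 up to 500 bases, through 0.07 at 750 to 1000, to -0.24 over 5000 bases. The members' median exceeded that of all genes in each of the 7 bins. In the bin of 500 to 750 bases, with 18 members, the medians were 0.21 for members and 0.05 for all genes, and in that of 1000 to 1500, with 10 members, they were 0.51 and 0.04.

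In DKO against WT the shortest genes were lower, with a median of -0.55 up to 500 bases and -0.14 at 500 to 750, where the members' median was 0.06. At 1000 to 1500 bases the medians were 0.48 for members and -0.02 for all genes. Again the members lay above all genes in each bin. In DKO against IL10RAKO the median of all genes rose with each bin, from -0.24 up to 500 bases to 0.09 over 5000. Across the 45 subunits, the difference between the knockouts went with log2 transcript length (Pearson's r = 0.685, Spearman's rho = 0.673), beside 0.166 and 0.233 across the other 13002 genes. Against WT, r across the subunits was 0.107 in IL10RAKO and 0.369 in DKO. Genes are not independent replicates, all values share the same 12 libraries, and these are descriptions without a test.

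**Figure D4:**
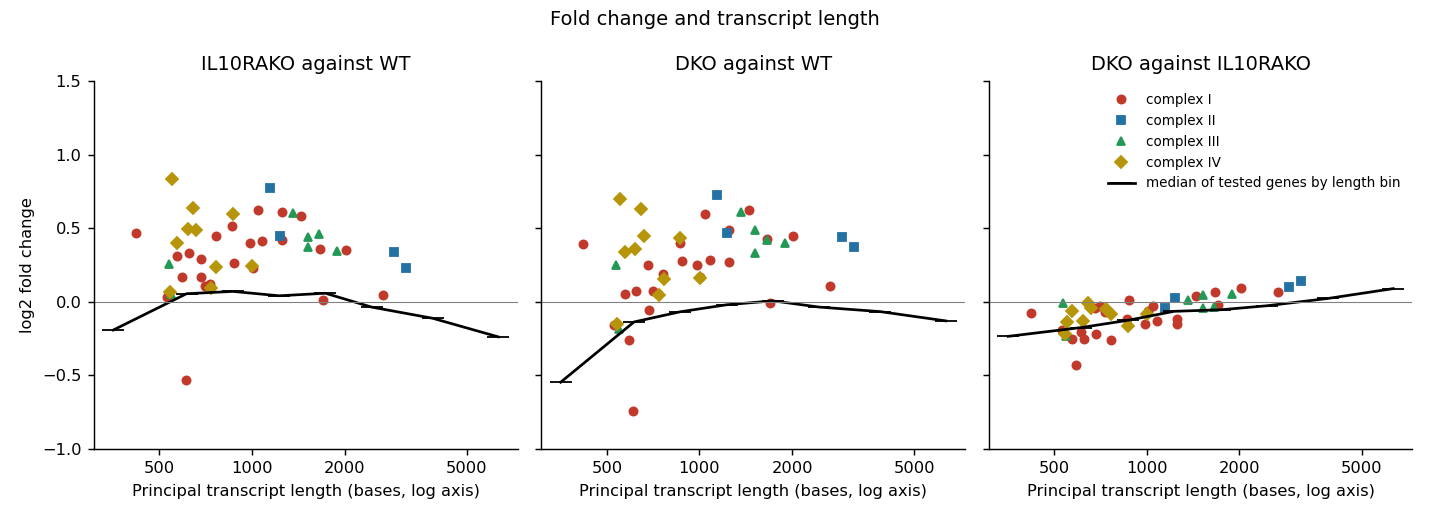
Log2 fold change (vertical axis) against principal transcript length in bases (horizontal log axis) for the 45 subunits, coloured by complex, in the 3 comparisons. The black line joins the medians of all tested genes in 8 length bins, and it rises from -0.24 to 0.09 in DKO against IL10RAKO, where the subunits follow it.

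The slope on length was also different between mice of the same genotype. For each library, the log2 deviation of 13002 other genes from their mean was fitted on log2 length. The slopes were 0.001 to 0.063 in WT, -0.127 to 0.076 for IL10RAKO and -0.131 to 0.105 for DKO, a negative slope meaning relatively more reads from short transcripts. Within each knockout, the mouse with the highest slope had the lowest median level of the subunits. That was IL10RAKO mouse 7, with a slope of 0.076 and a median log2 deviation of -0.24 where its group's other mice had 0.22 to 0.30, and DKO mouse 12, with 0.105 and -0.15 where the others had 0.08 to 0.25. The WT mouse with the lowest level, mouse 4 (-0.39), had a slope of 0.038, within the range of the WT mice. The median deviation of the 19 subunits under 750 bases lay at -0.58 to 0.23 in WT, -0.26 to 0.48 for IL10RAKO and -0.22 to 0.16 for DKO. That of the 10 subunits of at least 1500 bases lay at -0.34 to -0.11 in WT, -0.16 to 0.31 for IL10RAKO and -0.12 to 0.28 for DKO.

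Removing the length trend of each library changed the number of calls more than their direction. With a smooth per-library offset on length, the median over the subunits was 0.32 in IL10RAKO and 0.37 in DKO, beside 0.02 in both over all tested genes. Subunits called were 7 higher (15.6%) and 1 lower (2.22%) in IL10RAKO, where 10.7% of all tested genes were called higher and 6.25% lower. In DKO 13 were called higher (28.9%) and 1 lower (2.22%), where the shares of all tested genes were 11.4% and 8.41%. In DKO this added *Cox5b*, *Cox6b1*, *Cox7a2*, *Cyc1*, *Ndufa1*, *Ndufa10* and *Sdhd* to the 6 that were higher before. With length and GC content together the numbers were 6 and 1, and 12 and 1, beside 10.8% and 6.27%, and 11.5% and 8.61%, of all tested genes. Leaving out IL10RAKO mouse 7 raised the calls in IL10RAKO to 13 of 45, all higher. That fit called 2187 of 13534 tested genes, 57.3% of them higher. Leaving out WT mouse 5, WT mouse 13 or IL10RAKO mouse 8 left 2 of 45, all higher. Those fits called 1794 of 13356, 1656 of 13321 and 1494 of 13586 tested genes, with 53.9%, 57.1% and 59.6% of these higher.

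**Figure D5:**
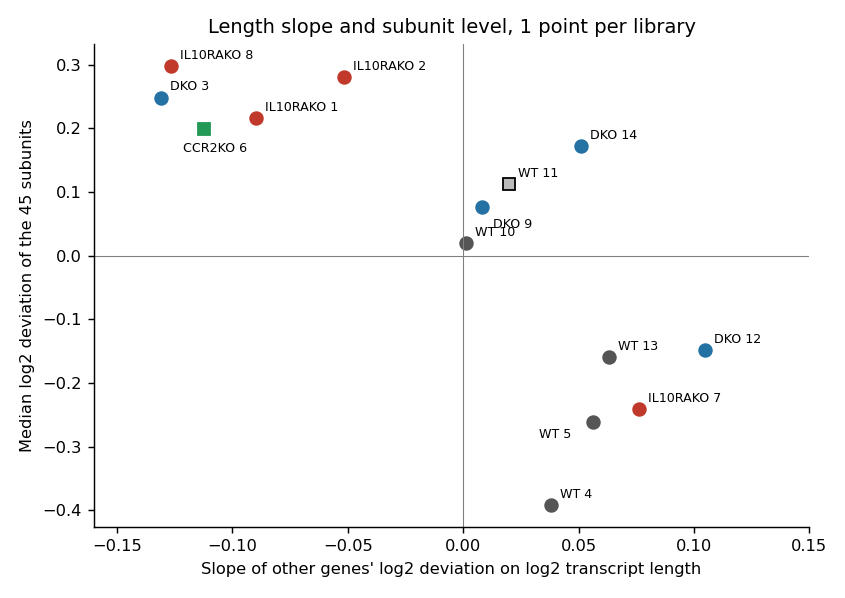
Median log2 deviation of the 45 subunits from their mean (vertical axis) against the slope of the other genes' log2 deviation on log2 transcript length (horizontal axis), with 1 point for each of the 14 libraries, coloured by genotype. IL10RAKO mouse 7 and DKO mouse 12 stand to the right and low, apart from the other mice of their genotypes.

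The CCR2KO library was set beside the WT mice without a test. Its 45 subunits summed to 4145 CPM, above the 3050 to 3803 CPM of the 4 WT mice and within the range of the knockouts (3337 to 4719 CPM in IL10RAKO and 3426 to 4688 in DKO). In it 27 of 45 subunits lay above all 4 WT mice and 0 below. The share of all tested genes lying this way was not counted, so the count is not shown to be particular to the subunits. The CCR2KO library had a slope on length of -0.112, lower than any WT library, and with 1 mouse a genotype and a library cannot be told apart. WT mouse 11 summed to 3976 CPM, with 18 of 45 subunits above the other 4 WT mice and 4 below, again without a count over all tested genes. With that mouse added to the fit, 5 subunits (11.1%) were called higher in IL10RAKO, against 7.29% of all tested genes. In DKO 3 (6.67%) were called higher and 1 (2.22%) lower, against 7.43% and 6.47% of all tested genes. *Cox5a* and *Ndufs3* were then called in neither knockout and *Cox8a* not in DKO (log2 fold change 0.56, adjusted p = 0.0598).

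Other genes of the same machinery were taken from lists of names. The 13 other complex I subunits that were tested had medians of 0.30 in IL10RAKO and 0.19 in DKO on the log2 scale, and 0 were called in either. *Cycs*, cytochrome c, was called higher in both (0.72 ± 0.18, adjusted p = 0.0159, and 0.64 ± 0.18, adjusted p = 0.0261). The 18 ATP synthase subunits had medians of 0.34 and 0.23, with 2 called higher in IL10RAKO and 1 in DKO. *Atp5b*, the catalytic beta subunit, rose from 644 ± 110.4 CPM in WT to 931 ± 159 in IL10RAKO (adjusted p = 0.0484) and 1006 ± 111 in DKO (adjusted p = 0.0171), and *Atp5g3*, a subunit of the membrane ring, was called in IL10RAKO (0.54 ± 0.16, adjusted p = 0.0320) and just missed in DKO (0.48 ± 0.16, adjusted p = 0.0501). In IL10RAKO the call of *Atp5b* was lost without any of 9 mice (adjusted p up to 0.139) and that of *Atp5g3* without any of 6 (up to 0.106), and in DKO *Atp5b* lost its call without WT mouse 13 (0.0557). The 13 tricarboxylic acid cycle genes had medians of 0.16 and 0.13.

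Of genes that help assemble the complexes, the 41 tested had medians of -0.01 in IL10RAKO and -0.14 in DKO, with 3 called higher and 1 lower in IL10RAKO and 1 higher and 2 lower in DKO. *Coa5*, which serves complex IV assembly, was higher in both (0.82 ± 0.16, adjusted p = 0.00347, and 1.19 ± 0.17, adjusted p = 0.000195), and *Cox17*, a copper chaperone of complex IV, in IL10RAKO (0.88 ± 0.23, adjusted p = 0.0177). *Ndufaf4*, which serves complex I assembly, was lower in both (-0.70 ± 0.21, adjusted p = 0.0374, and -0.66 ± 0.21, adjusted p = 0.0427), calls that were lost without any of 8 mice in IL10RAKO and of 10 in DKO, with WT mouse 11 added (adjusted p = 0.407 and 0.436) and with length offsets (0.0784 and 0.0750). *Cox20*, which serves complex IV assembly, was lower in DKO (-0.70 ± 0.19, adjusted p = 0.0208), but not called with WT mouse 11 added (0.0942). The 70 mitochondrial ribosomal proteins had medians of 0.14 and 0.06, with 3 called higher in IL10RAKO (*Mrpl39*, *Mrpl10* and *Mrpl54*) and 2 higher (*Mrpl10* and *Mrps35*) and 1 lower (*Mrpl33*) in DKO. The call of *Mrpl54* was lost without any of 7 mice and that of *Mrps35* without any of 8 (adjusted p up to 0.115 and 0.126). With WT mouse 11 added, *Mrpl10* was called in neither knockout (0.137 and 0.129).

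Among 12 regulators of mitochondrial gene expression, 0 were called in IL10RAKO and 2 in DKO. *Ppargc1b*, a coactivator of mitochondrial genes, was higher in DKO (8.74, 9.85, 10.3 and 19.4 CPM in WT and 14.5, 26.1, 29.9 and 37.3 CPM in DKO, log2 fold change 1.16 ± 0.30, adjusted p = 0.0146). Its call was lost without DKO mouse 14 (0.0534) and with WT mouse 11 added (0.110). *Tfam*, which packages mitochondrial DNA and starts its transcription, was lower (-0.64 ± 0.21, adjusted p = 0.0471), and that call was lost without any of 11 mice. The cytosolic ribosomal proteins, whose transcripts are also short (median 937 bases), had medians over 43 tested genes of 0.10 in IL10RAKO and -0.24 in DKO, with 0 called higher in either and 1 lower in DKO, *Rpl10a*, whose call was lost without any of 9 mice (adjusted p up to 0.117). Between the knockouts the median of the ribosomal proteins was -0.34, where that of the respiratory chain subunits was -0.06.

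Isoforms that are known mainly from other tissues were low. Of 11 isoforms or alternative subunits listed, 6 had enough reads to be tested. *Cox6b2*, known from testis, was at 2.46 to 4.82 CPM in WT and 0.494 to 1.06 CPM in DKO (log2 fold change -2.15 ± 0.46, adjusted p = 0.00459) with -0.88 ± 0.44 (adjusted p = 0.201) in IL10RAKO. The DKO call of *Cox6b2* was lost with WT mouse 11 added (adjusted p = 0.202). *Cox7b2* had 0 reads in each of the 14 libraries, and *Cox8b*, *Cox8c* and *Cyct* had 2 or fewer in any library. The counterpart of *Cox4i1* in lung, *Cox4i2*, was at 0.17 to 1.20 CPM in WT.

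Sequence copies limit some of these values. The annotation held at least 1 other transcript with 95% identity over 100 bases or more for 8 of the 45 subunits. The matched part was 75.7% of the transcript for *Ndufs3*, 62.8% for *Uqcrb*, 58.3% for *Cox7c*, 45.1% for *Cox5b*, 37.0% for *Ndufb3*, 31.3% for *Cox6c*, 24% for *Cox7b* and 10.6%, a repeat, for *Ndufc1*. Their levels are uncertain to that extent, and 2 of the 8, *Ndufs3* and *Cox5b*, were among the calls.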

How the data were processed

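The authors made cDNA with SmartSeq v4 from RNA of sorted macrophages and sheared it, sequenced paired-end reads, aligned them with STAR 2.5.1b to mm10 and deposited raw read counts per gene, with symbols in capitals. They also deposited an edgeR table of pseudocounts, used here as a score only to learn which 12 of the 14 libraries they kept. Their edgeR version was 3.34.0.

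Counts of the 12 libraries were tested with edgeR 4.0.16 (glmQLFit with the older deviance, glmQLFTest) after TMM scaling and filterByExpr with a minimum count of 10, with the 3 genotypes in 1 fit, and p-values were adjusted by Benjamini and Hochberg over all 13136 genes. Fold changes are log2 with standard errors and 95% intervals. The fit was tested on simulated data. Levels are TMM-scaled CPM. Deviations per library use log2(CPM + 1).

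Coordinates, transcript lengths and GC content came from the GENCODE annotation of GRCm38, which is mm10, with 24490 of 24982 genes matched by symbol, 57 by an older symbol and 435 not matched. The principal transcript stood for each gene. Length offsets were fitted per library as a smooth curve with 5 degrees of freedom. Whether the counting used strand, and how reads with several matches were counted, is not given in the sources used here.

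Batch, sex and litter of single mice are not in the labels. The members, lists and tests were chosen with earlier results of these data known. Named one by one are subunits called in any comparison, at least 2 per complex, and up to 4 called genes of each other list. *Sdhd* and *Cyc1* come in by the second part. Calls among tricarboxylic acid cycle genes are not reported here. Alternatives were DESeq2 1.42.0, RLE factors, library totals, other count filters, 13 libraries, 2 genotypes only, the newer deviance, length and GC offsets, and each mouse left out.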

Additional observations from a re-analysis of the deposited data

Results flagged for a closer look

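A library far from the other 3 of its genotype was looked for in 99 groups of 4 values, and 5 were found, where chance alone gives about 5%. *Cox5a* was highest in WT mouse 10, at 138 CPM beside 102 to 108 CPM in the other WT mice. *Cycs* was lowest in IL10RAKO mouse 7, at 71.5 CPM beside 109.7 to 117 CPM. The complex I subunits also had their lowest sum in IL10RAKO mouse 7, at 1086 CPM beside 1522 to 1559 CPM. *Cox6b2* was highest in IL10RAKO mouse 2, at 2.74 CPM beside 1.78 to 1.88 CPM. *Ppargc1b* was highest in WT mouse 13, at 19.4 CPM beside 8.74 to 10.3 CPM.

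A further value comes from the CCR2KO library, which no comparison used. Its 45 subunits summed to 4145 CPM, above the highest of the 4 WT mice of the fit, at 3803 CPM. As a share of counted reads they made up 0.491%, the highest of the 14 libraries. This difference rests on 1 mouse and was not tested.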

How the results depend on the processing

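In IL10RAKO the 6 calls became 2 with library totals and 2 to 13 when 1 mouse was left out: 13 without IL10RAKO mouse 7, 3 without IL10RAKO mouse 1, and 2 without IL10RAKO mouse 8, WT mouse 5 or WT mouse 13. In DKO the 7 calls became 1 with library totals, 4 with 13 libraries, 14 with length offsets, 13 with length and GC offsets, and 2 to 9 when 1 mouse was left out, with 4 without DKO mouse 3 or WT mouse 5, 3 without DKO mouse 9 and 2 without WT mouse 13. Calls over all genes moved as well. In DKO they were 2483 of 13534 tested genes without IL10RAKO mouse 7, 52.1% of them higher, and 1944 of 13321 without WT mouse 13, 51.7% higher. They were 1994 of 13562 without DKO mouse 3 (53.8% higher), 1691 of 13569 without DKO mouse 9 (52.2%) and 2134 of 13356 without WT mouse 5 (48.5%). In IL10RAKO they were 1485 of 13570 without IL10RAKO mouse 1, 60.1% of them higher. With all 12 mice they were 2076 of 13136 in IL10RAKO and 2424 in DKO. The subunits' median log2 fold change fell with library totals to 0.0345 in IL10RAKO and 0.0211 in DKO, as the median of all genes fell too. Without 1 mouse it stayed between 0.31 and 0.47 in IL10RAKO and between 0.24 and 0.41 in DKO, and its other alternatives moved it by less than the 0.204 SD between mice. Taking the union of exons in place of the principal transcript moved the median length of the subunits to 1550 bases, beside 4279 for the tested genes. DESeq2, RLE factors, no count filter, at least 10 reads in every library, 2 genotypes only and the newer deviance kept every count of calls within 1.5 times. Of the calls of single named genes, 134 of 480 were lost when 1 mouse was left out and 72 of 400 under other settings, and none changed direction. These totals include the targeted genes *Il10ra* and *Ccr2*, which kept every call. They also include fits without a mouse of the genotype outside the comparison, so they are no measure of the subunits' calls alone. No paired analysis was possible because replicate numbers were given here in the order of the mice and the labels tie no mouse of one genotype to a mouse of another. Each subunit had 261 reads or more in every library of the fit.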
